A study of Mus musculus with 8 samples.

Results

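The genes described here encode respiratory complex I, the NADH:ubiquinone oxidoreductase of the mitochondrial inner membrane, and the factors that assemble it, in myotubes with and without Cre-mediated deletion of RhoA. They were taken as all genes whose symbol in the probe table starts with Nduf, with the brightest row standing for a symbol that has several. This gave 46 of the 19505 genes measured, of which 38 are subunits by symbol and 8, Ndufaf1 to Ndufaf8, are assembly factors. Of the 38, Ndufa4 encodes a protein now placed in complex IV, Ndufa4l2 is its paralog and Ndufb4b is a single-exon copy of Ndufb4, so 35 encode complex I subunits in the strict sense. Ndufb1 was not analysed here, and 0 of the 7 subunits encoded by mitochondrial DNA were measured.

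The arrays compared RhoA flox/flox cells, in which LoxP sites flank exon 3 of RhoA, with Cre and without it. Satellite cells of Pax7-nGFP mice, marked by a nuclear green fluorescent protein, were sorted from hindlimb muscle by FACS, grown as primary myoblasts and differentiated for 3 days. The myotubes were then transduced with Ad-Cre-mCherry (Adeno CRE m-cherry in the labels, 4 arrays) or with Ad-mCherry (Adeno m-cherry, 4 arrays) at a multiplicity of infection of 100, and RNA was taken after 48 h. Both groups carry the floxed alleles, the reporter and an adenovirus with the red protein mCherry. Only 1 of the viruses carries Cre, so the presence of Cre and the loss of RhoA cannot be told apart. The labels number 4 replicates in each group whereas the methods state 3 independent cultures, and nothing says what a replicate number stands for, so p-values measure only the spread between these arrays, which may be technical.

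RhoA itself was 9.99, 10.87, 10.87 and 10.23 in replicates 1 to 4 of Ad-Cre-mCherry myotubes and 11.16, 11.39, 11.08 and 11.39 in Ad-mCherry myotubes, on the log2 scale of the deposited values. The groups did not overlap, and the log2 fold change was -0.77 (SE 0.23, adjusted p = 0.729 in limma), past the thresholds used below except without replicate 4, where it was -0.63. Where its probes lie relative to the deleted exon 3 is not known here, so this row checks the deletion only in part. Of 11 myotube markers, 1 had a higher and 10 a lower mean in Ad-Cre-mCherry myotubes. Downward, 2 were past these thresholds, Myog (log2 fold change -1.48) and Myh3 (-1.23), against 3.50% of all genes. With the replicate number as a block, 5 fell, against 8.20% of all genes, with Myog and Myh3 at an adjusted p of 0.0396 each in limma. Upward, 1 marker was past them with the block, the muscle creatine kinase Ckm (0.62), against 6.54% of all genes. The mean of the list was 14.30 to 15.44 per array in Ad-Cre-mCherry myotubes and 14.89 to 15.71 in Ad-mCherry myotubes. Lists for other cells had array means of 5.18 to 6.18 with Ad-Cre-mCherry and 5.47 to 6.67 with Ad-mCherry for satellite cells and of 6.34 to 7.30 with Ad-Cre-mCherry and 6.46 to 8.04 with Ad-mCherry for cycling cells. For macrophages, endothelium, fibroblasts, Schwann cells and adipocytes every array mean lay between 3.32 and 5.15 with Ad-Cre-mCherry and between 3.31 and 5.27 with Ad-mCherry, and 0 markers of these 5 lists passed. Of the 4 cycling genes measured, 1 had a higher and 3 a lower mean with Ad-Cre-mCherry, and the median log2 fold change was -0.33. Pcna was past the thresholds upward (1.24), Cdk1 (-0.92) was past them downward only with the block, and Top2a had -0.48 and Mki67 -0.17. Of the 4 satellite cell genes, 3 were lower, and Myf5 (-1.07) and Cdh15 (-0.54) were past downward only with the block. What part these differences had in the values below was not tested, and in bulk RNA fewer cells of a type and less RNA per cell cannot be told apart.

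Complex I takes electrons from NADH and hands them to ubiquinone, and it pumps protons across the inner membrane as it does so. Its N module binds NADH and a flavin, its Q module carries electrons along iron-sulfur clusters to the quinone site, and its membrane arm holds the proton pumps, whose core is encoded by mitochondrial DNA. Nuclear subunits are imported and joined to these by assembly factors that do not stay in the finished enzyme, and muscle fibres are rich in the complex.

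Promoter sequences are shown first because nuclear genes of the respiratory chain are known for binding sites of shared factors near their starts. Of the 46 genes, 41 matched the RefSeq promoter table (GRCm38.p6), which holds 250 bases before and 50 after each start. Ndufa2, Ndufa4l2, Ndufaf6, Ndufb9 and Ndufs1 had no match. The letters of nuclear respiratory factor 1 (NRF1), GCGC and TGCGC with any base between them, were found on either strand in 9 of the 41 genes (22.0%), against 5.19% of all 27025 genes in the table. The letters AAGATGGCG of YY1 were found in 6 (14.6%) against 1.64%, those of ETS factors such as GABPA, CCGGAAGT, in 1 (2.44%, Ndufs3) against 4.31%, those of estrogen-related receptors, TCAAGGTCA, in 0 against 0.466%, and the CArG box of serum response factor in 0 against 1.81%. The motifs do not overlap one another in these genes. A match describes letters in this window and says nothing of binding.

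The NRF1 windows of the 4 genes that had a match and were past the thresholds of the study, described below, are given first, in 30 bases with the match in capitals and the match read on the strand shown. They lie at chr17:56717692-56717721 on the plus strand (Ndufa11), chr15:82354249-82354278 on the minus strand (Ndufa6), chr2:36049349-36049378 on the minus strand (Ndufa8) and chr2:140170652-140170681 on the plus strand (Ndufaf5). The windows of Ndufaf4 (chr4:24897960-24897989, plus strand) and Ndufs6 (chr13:73328479-73328508, minus strand), which were not past them, show the same letters.
Ndufa11: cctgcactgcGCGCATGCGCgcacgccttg
Ndufa6: ccgtggcaccGCGCGTGCGCacgctgaagg
Ndufa8: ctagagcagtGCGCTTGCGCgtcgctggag
Ndufaf5: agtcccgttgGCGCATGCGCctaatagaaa
Ndufaf4: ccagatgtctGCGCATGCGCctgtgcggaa
Ndufs6: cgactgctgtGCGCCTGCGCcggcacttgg

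The YY1 letters, in capitals, lay after the start in all 6 genes that held them. They are shown for Ndufs7, the gene with the largest fold change of the 46 (chr10:80249463-80249492, plus strand), for Ndufs6 (chr13:73328433-73328462, minus strand) and for Ndufs4 (chr13:114388045-114388074, minus strand), whose fold change was near 0.
Ndufs7: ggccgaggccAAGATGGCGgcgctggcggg
Ndufs6: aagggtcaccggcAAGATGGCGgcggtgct
Ndufs4: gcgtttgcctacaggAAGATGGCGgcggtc

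The 250 bases before the start are shown for Ndufa11, which was past the thresholds and has 1 NRF1 match there, and for Ndufb4, which was not and has 3, the most of any of the 41. They are chr17:56717512-56717761 on the plus strand and chr16:37654369-37654618 on the minus strand. Capitals mark the matches, which in Ndufb4 are read on the opposite strand.
Ndufa11: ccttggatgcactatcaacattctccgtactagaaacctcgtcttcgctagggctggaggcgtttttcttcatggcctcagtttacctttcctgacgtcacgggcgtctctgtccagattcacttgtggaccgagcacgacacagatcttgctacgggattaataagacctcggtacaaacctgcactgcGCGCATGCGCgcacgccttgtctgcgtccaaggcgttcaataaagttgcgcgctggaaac
Ndufb4: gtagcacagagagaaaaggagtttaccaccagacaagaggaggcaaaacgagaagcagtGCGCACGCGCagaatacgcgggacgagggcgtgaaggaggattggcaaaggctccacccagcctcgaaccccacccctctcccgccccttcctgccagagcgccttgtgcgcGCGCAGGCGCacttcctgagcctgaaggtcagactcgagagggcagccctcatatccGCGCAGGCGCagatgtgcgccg

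Complex I genes were mostly higher in Ad-Cre-mCherry myotubes, by a small amount. The mean was higher in 40 of the 46 genes (87.0%), against 49.9% of all genes, and the median log2 fold change was 0.26, against 0.00 over all genes. The thresholds of the study (1.2-fold or more, with a limma p under 0.05 before adjustment) were passed upward by 8 of the 46 (17.4%), against 2.92% of all genes, and downward by 0, against 3.50%. The 8 are Ndufs7, Ndufb8, Ndufs8, Ndufa6, Ndufa8, Ndufv2 and Ndufa11 among the subunits and Ndufaf5 among the assembly factors. The arrays of Ad-Cre-mCherry all lay above those of Ad-mCherry in 6 of the 46 (13.0%), against 1.82% of all genes, and all below in 0, against 1.93%. The groups overlapped in the other 40. After Benjamini-Hochberg adjustment limma called 0 of the 46 and 0.00% of all genes at 0.05. The smallest adjusted p of a complex I gene was 0.729, and 8 of the 46 and 6.42% of all genes had an unadjusted p under 0.05.

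The gene-wise unpaired test with unequal variances put 5 past the same thresholds upward, against 2.11% of all genes, and 0 of the 46 after adjustment. These were 4 of the 8 and Ndufb5.

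The count of 8 depended on single arrays. It was 6, 2, 5 and 4 without replicate 1, 2, 3 or 4 of Ad-Cre-mCherry and 3, 2, 7 and 9 without replicate 1, 2, 3 or 4 of Ad-mCherry. Of all genes, 2.38%, 2.49%, 3.60% and 3.43% passed upward in the first set of settings and 2.29%, 1.99%, 2.48% and 3.30% in the second. Without both arrays of replicate 1, 2, 3 or 4 the count was 2, 1, 4 and 8, against 1.94%, 1.41%, 2.54% and 3.27% of all genes. Ndufs7 alone was past the thresholds in all 12 of these settings, Ndufa6 was in 10, and the other 6 were in 3 to 6. With the replicate number as a block, the count was 12 (26.1%), against 6.54% of all genes upward. It held all 8 and added Ndufb10 (log2 fold change 0.56), Ndufb6 (0.49), Ndufaf6 (0.47) and Ndufc2 (0.44). Downward it was 0, against 8.20%. The block brought 0.323% of all genes, and 0 of the 46, to an adjusted p under 0.05, and Ndufaf5 had the smallest adjusted p of the 46, 0.122.

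**Figure D1:**
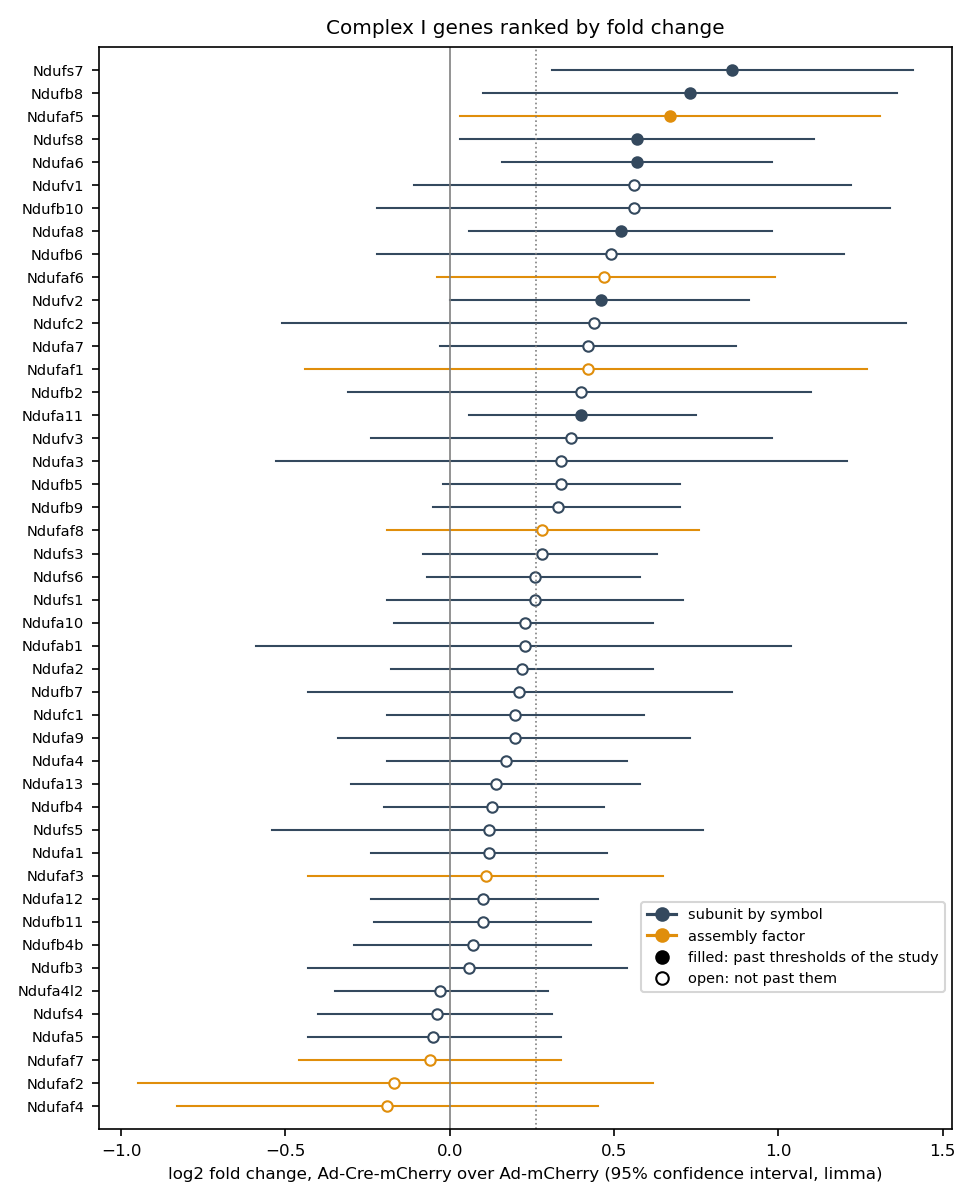
Log2 fold change of each of the 46 genes, Ad-Cre-mCherry over Ad-mCherry, with its 95% confidence interval from limma, ordered by size. Subunits are dark and assembly factors orange, filled points are past the thresholds of the study, and the dotted line marks the 1.2-fold threshold. Points run from 0.86 for Ndufs7 to -0.19 for Ndufaf4, and 40 lie above 0.

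The core subunits, which bacteria also have and which carry the flavin and the iron-sulfur clusters, had the highest median of the lists of complex I genes. The 6 described here all had a higher mean with Ad-Cre-mCherry, against 49.9% of all genes, and their median log2 fold change was 0.51. Their median array value was lower, 13.66 against 15.88 for the 29 other structural subunits. Fold changes of subunits differed with level, as described below, and what part level had in this median was not tested. Ndufs7, the Q module subunit with the last iron-sulfur cluster before ubiquinone, read 12.30, 12.20, 11.79 and 11.59 in replicates 1 to 4 of Ad-Cre-mCherry and 11.29, 10.55, 11.23 and 11.37 in those of Ad-mCherry. Every Ad-Cre-mCherry value lay above every Ad-mCherry value, and replicate 2 of Ad-mCherry stood below the rest of its group. It averaged 11.97 ± 0.34 with Ad-Cre-mCherry and 11.11 ± 0.38 with Ad-mCherry (SD, n = 4 each). The log2 fold change was 0.86 (SE 0.24, 95% confidence interval 0.31 to 1.41, limma p = 0.00598, adjusted p = 0.729, two-sided exact permutation p = 0.0286, the smallest that 4 arrays against 4 can give), a 1.82-fold difference, and it was 0.60 to 1.07 over the 12 settings that leave arrays out.

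Ndufs8, which carries iron-sulfur clusters of the Q module, read 13.98, 14.08, 14.45 and 14.18 with Ad-Cre-mCherry and 13.05, 13.55, 14.15 and 13.66 with Ad-mCherry. The groups overlapped through replicate 3 of Ad-mCherry, the highest of its group, yet each Ad-Cre-mCherry value was above the Ad-mCherry value of its own number. Ndufs8 rose by 0.57 (SE 0.24, limma p = 0.0399, adjusted p = 0.76, exact permutation p = 0.0857). This call was lost without replicate 1, 2 or 4, without replicate 2, 3 or 4 of Ad-Cre-mCherry, and without replicate 1, 2 or 4 of Ad-mCherry, with values of 0.39 to 0.60 there. Ndufs3, the Q module subunit between the clusters and the membrane arm, read 17.50, 17.63, 17.51 and 17.69 with Ad-Cre-mCherry and 17.11, 17.15, 17.50 and 17.46 with Ad-mCherry. Replicates 1 and 2 of Ad-mCherry were low and replicate 3 differed by 0.01, and the log2 fold change of 0.28 (limma p = 0.113, exact permutation p = 0.0571) did not pass. Ndufa5, the accessory subunit of the Q module, had -0.05.

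Ndufv1, which binds NADH and the flavin, read 14.08, 13.55, 14.07 and 13.18 with Ad-Cre-mCherry and 12.64, 12.86, 13.57 and 13.58 with Ad-mCherry. Replicate 1 differed most, by 1.44, and replicate 4 went the other way, by -0.40. Its log2 fold change of 0.56 (SE 0.29, limma p = 0.0896, exact permutation p = 0.171) did not pass, but did at 0.88 without replicate 4 and at 0.74 without replicate 4 of Ad-Cre-mCherry. Ndufv2, its partner with an iron-sulfur cluster, read 14.02, 14.08, 14.42 and 14.19 with Ad-Cre-mCherry and 13.36, 13.51, 13.95 and 14.06 with Ad-mCherry. Here all 4 numbers agreed in direction, and only replicate 4 of Ad-mCherry exceeded the lowest Ad-Cre-mCherry value. Ndufv2 rose by 0.46 (SE 0.20, limma p = 0.0487, adjusted p = 0.76, exact permutation p = 0.0571), just inside the threshold, and it kept the call only without replicate 4, without replicate 1 of Ad-Cre-mCherry, or without replicate 3 or 4 of Ad-mCherry. The other 8 settings gave 0.34 to 0.49. Ndufs1, the largest subunit of the N module, read 13.16, 12.93, 13.55 and 13.31 with Ad-Cre-mCherry and 12.67, 12.85, 13.10 and 13.28 with Ad-mCherry. The ranges overlapped in part, and its log2 fold change of 0.26 (limma p = 0.22, exact permutation p = 0.2) did not pass.

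Among the 29 other structural subunits, 27 had a higher mean with Ad-Cre-mCherry and the median log2 fold change was 0.23. By position in the enzyme, the medians were 0.26 for the 11 N module genes (10 higher, 2 past the thresholds), 0.42 for the 4 Q module genes (3 higher, 2 past), 0.21 for the 10 genes of the proximal membrane arm (10 higher, 2 past, 3 with the block) and 0.33 for the 10 of the distal arm (10 higher, 1 past, 3 with the block). Of all genes, 49.9% were higher, 2.92% past the thresholds upward and 6.54% past them upward with the block. Differences between modules were not tested.

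In the N module, Ndufa6, a subunit that holds the acyl carrier protein Ndufab1, read 14.54, 14.34, 14.24 and 13.99 with Ad-Cre-mCherry and 13.60, 13.46, 13.90 and 13.86 with Ad-mCherry. The groups did not overlap, and the gap was widest in replicates 1 and 2. Ndufa6 rose by 0.57 (SE 0.18, limma p = 0.0111, adjusted p = 0.729, exact permutation p = 0.0286), and the call was lost only without replicate 1 (0.45) or replicate 2 (0.47). Ndufs6, a zinc-binding subunit, read 15.68, 15.47, 15.38 and 15.33 with Ad-Cre-mCherry and 15.20, 15.17, 15.23 and 15.23 with Ad-mCherry. Its Ad-mCherry values lay within 0.06 of each other and below all Ad-Cre-mCherry values, and its log2 fold change of 0.26 (limma p = 0.108, exact permutation p = 0.0286) did not pass. Ndufab1 itself had 0.23, Ndufa7 0.42, Ndufv3 0.37, Ndufa2 0.22, Ndufa12 0.10 and Ndufs4 -0.04, and 0 of these 6 passed.

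In the membrane arm, Ndufb8, an accessory subunit of the distal part, read 12.44, 12.10, 11.79 and 12.14 with Ad-Cre-mCherry and 11.29, 10.98, 11.09 and 12.19 with Ad-mCherry. Replicates 1 to 3 differed by 0.70 to 1.15, while replicate 4 of Ad-mCherry was as high as its Ad-Cre-mCherry counterpart. Ndufb8 rose by 0.73 (SE 0.28, limma p = 0.0275, adjusted p = 0.748, exact permutation p = 0.114), and kept the call without replicate 4, without replicate 3 of Ad-Cre-mCherry or without replicate 4 of Ad-mCherry. In the other 9 settings it was 0.59 to 0.74 and not past. Ndufa8, a subunit on the intermembrane side of the proximal arm, read 14.31, 14.61, 14.29 and 14.82 with Ad-Cre-mCherry and 13.88, 13.66, 14.08 and 14.34 with Ad-mCherry. All 4 numbers were higher with Ad-Cre-mCherry, and replicate 4 was the highest of both groups. Ndufa8 rose by 0.52 (SE 0.20, limma p = 0.0307, adjusted p = 0.752, exact permutation p = 0.0857), but not without replicate 1 or 2, without replicate 2 or 4 of Ad-Cre-mCherry, or without replicate 1 or 2 of Ad-mCherry, with values of 0.37 to 0.55.

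Ndufa11, a membrane subunit at the contact with complex III in supercomplexes, read 17.12, 17.05, 16.77 and 16.80 with Ad-Cre-mCherry and 16.54, 16.48, 16.46 and 16.65 with Ad-mCherry. The groups did not overlap. Ndufa11 rose by 0.40 (SE 0.15, limma p = 0.0263, adjusted p = 0.748, exact permutation p = 0.0286), and lost the call without replicate 1, 2 or 3, without replicate 1 or 2 of Ad-Cre-mCherry, or without replicate 2 or 3 of Ad-mCherry (0.34 to 0.43). Ndufb5, an accessory subunit of the distal arm, read 16.24, 16.11, 15.97 and 15.89 with Ad-Cre-mCherry and 15.47, 15.68, 15.87 and 15.83 with Ad-mCherry. Its groups were apart by 0.02 at the nearest pair of values, and the log2 fold change of 0.34 (limma p = 0.0644, exact permutation p = 0.0286) did not pass in limma but did in the gene-wise test with unequal variances. Ndufb6, Ndufb10 and Ndufc2 passed only with the block. In Ndufc2, for example, replicates 1 to 4 read 15.24, 15.52, 16.14 and 16.66 with Ad-Cre-mCherry and 14.87, 14.73, 15.95 and 16.24 with Ad-mCherry. Both groups were low in replicates 1 and 2 and high in 3 and 4, so the groups overlapped while each number differed by 0.19 to 0.79 in the same direction (limma p = 0.32, exact permutation p = 0.457), and it passed with the block. The other proximal arm genes ranged from 0.12 for Ndufa1 to 0.34 for Ndufa3, and the other distal ones from 0.06 for Ndufb3 to 0.40 for Ndufb2.

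**Figure D2:**
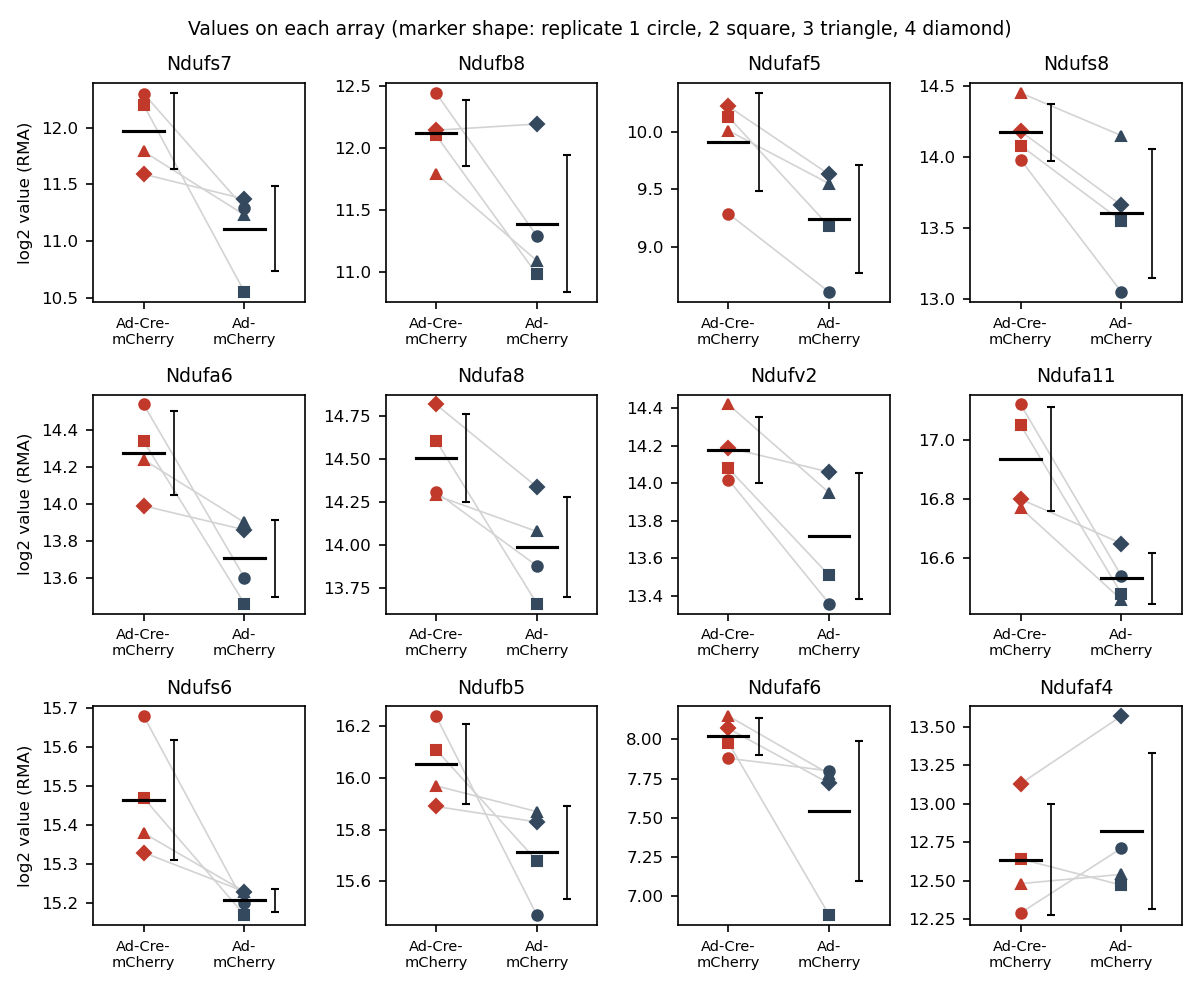
Deposited log2 value of 12 complex I genes on each array, Ad-Cre-mCherry left and Ad-mCherry right, with the mean of the group as a line and the SD (n = 4) as a bar beside it. Grey lines join arrays with the same replicate number, and each panel has its own axis. Groups do not overlap in Ndufs7, Ndufa6, Ndufa11, Ndufs6, Ndufb5 and Ndufaf6, and Ndufaf4 has the smallest fold change, -0.19.

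The 8 assembly factors were divided. The mean was higher with Ad-Cre-mCherry in 5 and lower in 3, the median log2 fold change was 0.20, and 1 was past the thresholds. Of all genes, 49.9% were higher and 2.92% past the thresholds upward. Ndufaf5, which in human cells hydroxylates an arginine of NDUFS7, read 9.29, 10.13, 10.01 and 10.22 with Ad-Cre-mCherry and 8.61, 9.18, 9.55 and 9.63 with Ad-mCherry. Replicate 1 was the lowest of both groups and made them overlap, and all 4 numbers differed in the same direction, by 0.46 to 0.95. Ndufaf5 rose by 0.67 (SE 0.29, limma p = 0.0429, adjusted p = 0.76, exact permutation p = 0.0857, 1.59-fold). The call was kept without replicate 1, without replicate 1 of Ad-Cre-mCherry and without replicate 3 or 4 of Ad-mCherry, and lost in the other 8 settings (0.46 to 0.74). It also passed with the block. Ndufaf8, the partner of NDUFAF5 in human cells, read 9.45, 10.05, 9.32 and 9.67 with Ad-Cre-mCherry and 9.52, 9.05, 9.20 and 9.58 with Ad-mCherry. Replicate 2 differed by 1.0 and the others by -0.07 to 0.12, and its log2 fold change of 0.28 (limma p = 0.207, exact permutation p = 0.229) did not pass.

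Ndufaf6, a factor needed for the membrane arm subunit ND1 in human cells, read 7.88, 7.98, 8.15 and 8.07 with Ad-Cre-mCherry and 7.80, 6.88, 7.78 and 7.72 with Ad-mCherry. The groups did not overlap, but replicate 2 of Ad-mCherry lay well below the other arrays. The log2 fold change of 0.47 (limma p = 0.0649, exact permutation p = 0.0286) was 0.25 to 0.61 when arrays were left out, and it passed with the block. Ndufaf1, part of the complex that builds the membrane arm with Ecsit, Acad9 and Tmem126b, read 9.11, 9.29, 9.74 and 10.41 with Ad-Cre-mCherry and 9.11, 8.36, 9.47 and 9.94 with Ad-mCherry. Replicate 1 was equal in both groups, replicate 2 differed by 0.93, and the log2 fold change of 0.42 (SE 0.38, limma p = 0.299, exact permutation p = 0.429) did not pass.

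The remaining 4 factors had fold changes near 0 whose sign depended on single arrays. Ndufaf3 read 10.65, 10.38, 10.84 and 10.74 with Ad-Cre-mCherry and 10.87, 10.02, 10.98 and 10.29 with Ad-mCherry. Ndufaf4, which binds Ndufaf3 and acts on the early Q module, read 12.29, 12.64, 12.48 and 13.13 with Ad-Cre-mCherry and 12.71, 12.47, 12.54 and 13.57 with Ad-mCherry. Replicates 1 and 3 were the lower with Ad-Cre-mCherry in both genes, but replicate 4 differed by 0.45 in Ndufaf3 and by -0.44 in Ndufaf4. The log2 fold change was 0.11 for Ndufaf3 (limma p = 0.651, exact permutation p = 0.714) and -0.19 for Ndufaf4 (limma p = 0.524, exact permutation p = 0.571). Ndufaf7, a methyltransferase, read 10.87, 11.15, 11.30 and 10.73 with Ad-Cre-mCherry and 11.15, 11.19, 11.09 and 10.85 with Ad-mCherry. Its log2 fold change was -0.06 (limma p = 0.754, exact permutation p = 0.771), with the groups overlapping over most of their range. The sign turned in Ndufaf3 without replicate 2 of Ad-mCherry (-0.06), in Ndufaf4 without replicate 4 of Ad-mCherry (0.06), and in Ndufaf7 without replicate 1 (0.02) or without replicate 4 of Ad-Cre-mCherry (0.04).

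A pair of paralogs stands on both sides of the split between factors and subunits. Ndufaf2 holds a place in the assembling enzyme that its paralog Ndufa12 takes in the finished one. Ndufaf2 read 11.99, 11.96, 10.59 and 11.19 with Ad-Cre-mCherry and 12.18, 11.65, 11.17 and 11.40 with Ad-mCherry. Replicate 3 of Ad-Cre-mCherry was the lowest array, and the SD of that group, 0.67, was far larger than the log2 fold change of -0.17 (SE 0.35, limma p = 0.642, exact permutation p = 0.714), which was 0.11 without replicate 3 of Ad-Cre-mCherry and 0.03 without replicate 1 of Ad-mCherry. Ndufa12 read 16.94, 16.99, 16.85 and 16.59 with Ad-Cre-mCherry and 16.65, 16.70, 16.79 and 16.82 with Ad-mCherry. It was higher in replicates 1 to 3 and lower in replicate 4, for a log2 fold change of 0.10 (limma p = 0.517, exact permutation p = 0.343). The interval of Ndufaf2, -0.95 to 0.62, contains that of Ndufa12, -0.24 to 0.45.

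Ndufa4, the subunit of complex IV, read 17.85, 17.94, 17.81 and 18.30 with Ad-Cre-mCherry and 17.68, 17.79, 17.88 and 17.86 with Ad-mCherry. Replicate 4 of Ad-Cre-mCherry was the highest and the rest lay close together, and the log2 fold change of 0.17 (limma p = 0.316, exact permutation p = 0.2) did not pass. Ndufa4l2, which replaces it in cells short of oxygen, read 2.65, 2.54, 2.56 and 2.51 with Ad-Cre-mCherry and 2.73, 2.40, 2.63 and 2.61 with Ad-mCherry. These values are close to 2.05, the lowest in the whole table, and differed by -0.03 (limma p = 0.852, exact permutation p = 0.743), which turned to 0.02 without replicate 1 of Ad-mCherry. Ndufb4b and Ndufb4 had log2 fold changes of 0.07 and 0.13, and because the copies are alike their signals may be shared, so both are uncertain.

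The fold changes of complex I genes came mostly from replicates 1 and 2. The difference between Ad-Cre-mCherry and Ad-mCherry was above 0 in 35, 43, 32 and 32 of the 46 genes in replicates 1 to 4, against 48.2%, 49.7%, 49.3% and 49.1% of all genes. It was above 0 in all 4 numbers in 19 of the 46, of which 17 are subunits and 2 (Ndufaf5 and Ndufaf6) are assembly factors, against 9.88% of all genes, and below 0 in all 4 in 0, against 11.1%. The mean difference of replicates 1 and 2 was larger than that of replicates 3 and 4 in 42 of the 46 genes (36 subunits, 6 factors), against 48.7% of all genes. This split into pairs of replicates was chosen after the values were seen.

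**Figure D3:**
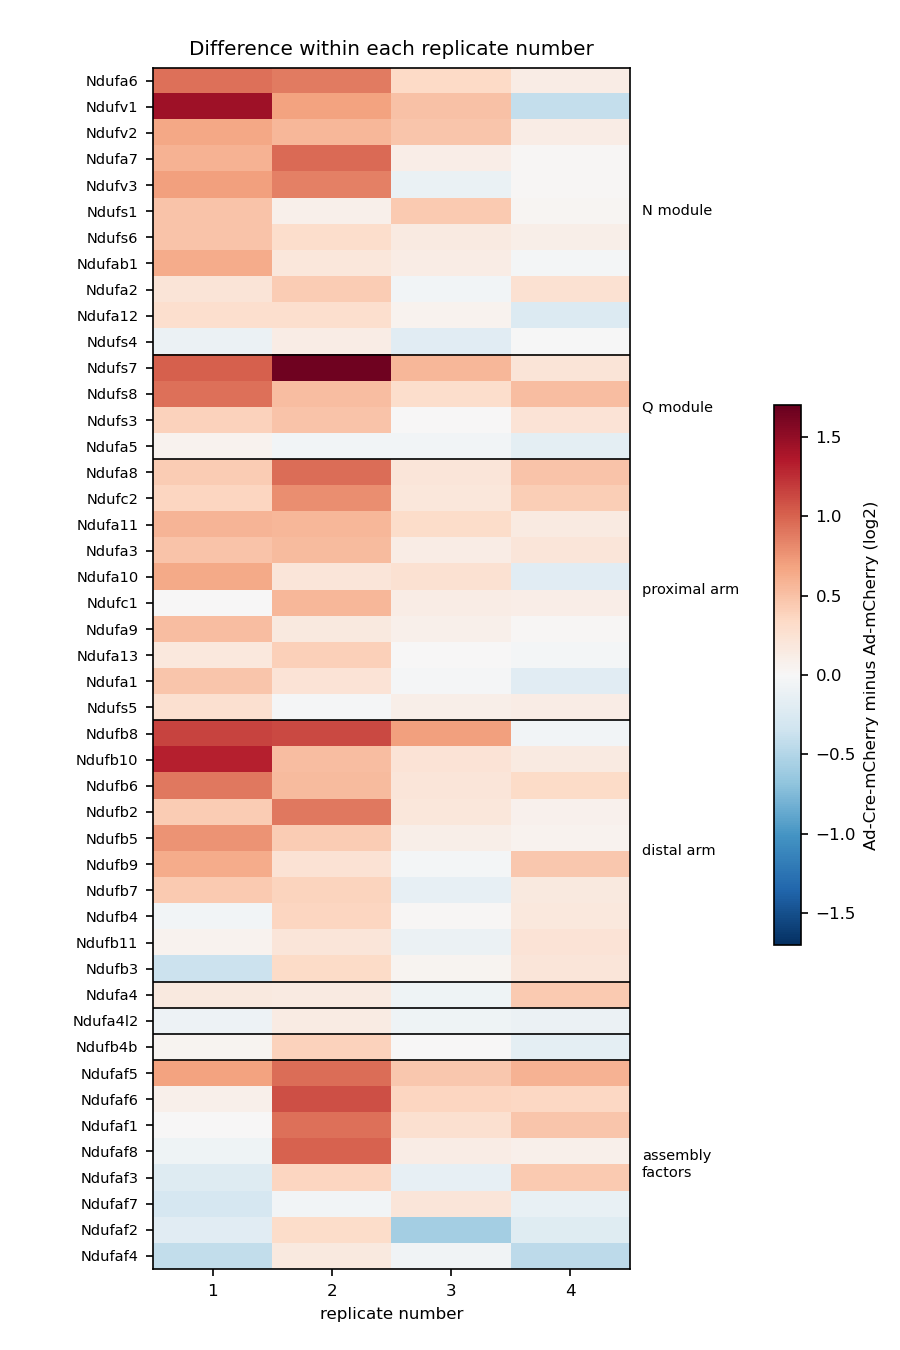
Difference between Ad-Cre-mCherry and Ad-mCherry (log2, colour) of each of the 46 genes in each replicate number, with subunits grouped by module and the assembly factors at the bottom. Red is higher with Ad-Cre-mCherry. Red is deepest in columns 1 and 2, where Ndufs7 reaches 1.65 in replicate 2 and Ndufv1 1.44 in replicate 1, and assembly factors are mostly pale or blue in column 1.

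Subunits and assembly factors did not follow the same replicates. The median difference of the 38 subunits was 0.47, 0.42, 0.11 and 0.11 in replicates 1 to 4, and that of the 8 assembly factors was -0.13, 0.65, 0.16 and 0.22. Replicate 1 separated them, with 33 of 38 subunits but 2 of 8 factors above 0, and in replicates 2 to 4 the factor median was the higher. Over all arrays the medians were 0.26 for subunits and 0.20 for factors, a difference of 0.06, against an SD of 0.37 over the 4 numbers for this difference. Without replicate 1 it was -0.11 and without replicate 2 it was 0.20. The factor median itself was 0.04 without replicate 2, 0.06 without replicate 2 of Ad-mCherry, 0.12 without replicate 4 of Ad-Cre-mCherry and 0.31 without replicate 1. No test of the difference between the classes was made.

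The position of each array mixes the difference between groups with any shift shared by both arrays of a number. It therefore does not tell which group moved. The median deviation of the subunits from their own means over 8 arrays was 0.07, 0.16, 0.08 and 0.21 in replicates 1 to 4 of Ad-Cre-mCherry and -0.32, -0.24, 0.01 and 0.05 in those of Ad-mCherry. Relative to these means, the Ad-Cre-mCherry arrays lay close together and replicates 1 and 2 of Ad-mCherry lay low. For the assembly factors the values were -0.10, 0.15, 0.25 and 0.24 with Ad-Cre-mCherry and 0.03, -0.41, -0.01 and 0.00 with Ad-mCherry, so that replicate 2 of Ad-mCherry alone was low. Over all genes the medians stayed between -0.03 and 0.01 on every array.

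**Figure D4:**
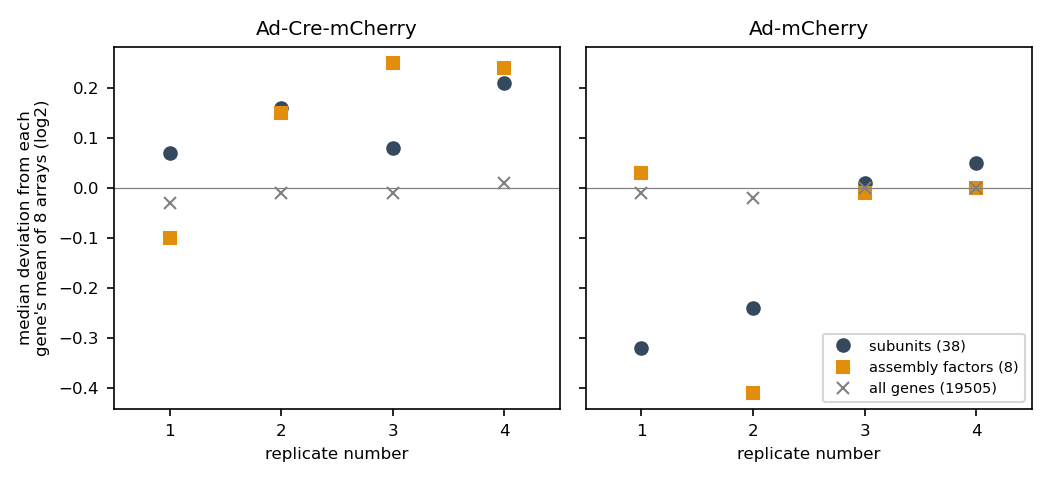
Median deviation of the 38 subunits, the 8 assembly factors and all 19505 genes from each gene's mean over 8 arrays, by array, Ad-Cre-mCherry left and Ad-mCherry right. Subunits lie lowest in replicates 1 and 2 of Ad-mCherry (-0.32 and -0.24), and factors in its replicate 2 (-0.41).

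Fold changes of the subunits were smaller in rows with a high array value. The 14 subunits with a mean of 16 or more had a median log2 fold change of 0.16 with an SD of 0.12 across genes, and 1 was past the thresholds. The 24 under 16 had a median of 0.38 with an SD of 0.23, and 6 were past. The share of all genes past the thresholds upward was 1.88% at 16 or more and 2.93% under 16. The spread of all genes was narrower at the top too, with an SD of 0.27 in 213 genes at 16 or more, against 0.35 below. Array values differ between rows by probe as well as by transcript, so they give no order of the genes' RNA. Between 10 and 16, the median was 0.40 for 23 subunits and -0.11 for 4 assembly factors, against 0.01 for 2431 genes. This gap depends on the cut at 10, because the factors under it, Ndufaf1, Ndufaf5, Ndufaf6 and Ndufaf8, had 0.42, 0.67, 0.47 and 0.28. Most of the subunits in this range also had a higher mean level than the 4 factors, so the classes are not matched by level there. The divisions at 10 and 16 were also chosen after the values were seen.

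**Figure D5:**
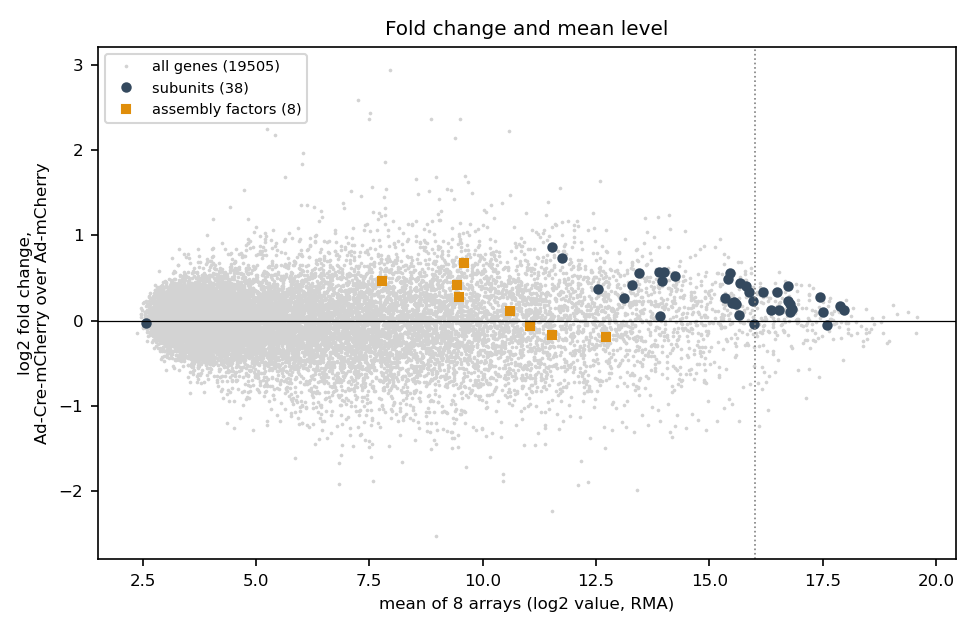
Log2 fold change of every gene, Ad-Cre-mCherry over Ad-mCherry, against its mean log2 value over 8 arrays, with subunits as dark circles, assembly factors as orange squares and all 19505 genes as grey points. The dotted line marks 16, right of which 14 subunits have a median of 0.16.

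Most complex I genes are short, and short genes had slightly higher fold changes throughout the array. In 5 equal bins of gene span in the GRCm38.p6 annotation, from short to long, the 11, 22, 6, 5 and 2 complex I genes had median log2 fold changes of 0.22, 0.27, 0.38, 0.26 and -0.11. All genes of these bins had 0.06, 0.05, 0.03, -0.03 and -0.14. Complex I genes were thus above all genes in each bin, by 0.03 only in the last, which holds Ndufaf2 (106064 bases) and Ndufs4 (100300 bases).

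Promoter letters and fold changes were set side by side without a test. The 9 genes with NRF1 letters had a median log2 fold change of 0.26 and 4 past the thresholds, and the 32 matched genes without them had 0.25 and 4. The 6 with YY1 letters had 0.23 and 1, and the 35 without them 0.28 and 7. The share of all genes past the thresholds upward was 2.92%. Of the sequences shown above, Ndufa11, Ndufa6, Ndufa8 and Ndufaf5 rose, whereas Ndufb4 with its 3 matches had 0.13 (limma p = 0.393, exact permutation p = 0.2) and Ndufaf4 had the lowest value of all.

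Other genes that act on complex I were less uniform. Of 14 assembly factors with other names, 13 were measured, and the median log2 fold change was 0.05. The mean with Ad-Cre-mCherry was higher in 10 and lower in 3, against 49.9% of all genes higher. The thresholds were passed upward by 1 and downward by 1, against 2.92% and 3.50% of all genes. Ecsit, of the membrane arm assembly complex, rose by 0.53 (limma p = 0.042, exact permutation p = 0.114), and Sfxn4, of the sideroflexin family, fell by 0.53 (limma p = 0.0394, exact permutation p = 0.0286) with values of 5.38 to 6.31 in Ad-Cre-mCherry myotubes and 6.37 to 6.55 in Ad-mCherry myotubes. The partners of Ecsit did not pass, with 0.23 for Tmem126b and -0.21 for Acad9. Nor did Foxred1 (0.37), Timmdc1 (0.35) and the iron-sulfur carrier Nubpl (-0.34). Of 7 regulators of mitochondrial genes, 6 were measured, 2 were higher and 4 lower, the median was -0.18 and 0 passed. Among them were the coactivator Ppargc1a (0.08), Nrf1 (0.08), the ETS factor Gabpa (-0.34), Yy1 (-0.25) and the mitochondrial DNA factor Tfam (-0.22).

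The rest of the respiratory chain had the same median as complex I. The median log2 fold change was 0.26 for the 46 complex I genes and 0.26 for the 48 nuclear genes of complexes II to V. Of these 48, 46 were higher, against 49.9% of all genes, and 6 were past the thresholds upward, against 2.92%. With the block, 11 were past them, against 6.54%. Median values were 0.69 for the 4 Sdh genes of complex II, 0.27 for 9 genes of complex III, 0.18 for 18 of complex IV and 0.25 for 17 of complex V. The 76 mitochondrial ribosomal protein genes had a median of 0.43, with 70 higher and 14 past the thresholds, and 36 with the block, against the same shares of all genes. These lists were not tested against complex I. In replicates 1 to 4 the median differences were 0.43, 0.42, 0.11 and 0.11 for complex I, 0.35, 0.34, 0.19 and 0.11 for complexes II to V, and 0.60, 0.64, 0.29 and 0.11 for the ribosomal proteins.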

How the data were processed

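RNA of RhoA flox/flox myotubes was measured on 8 Affymetrix arrays, from 25 ng of RNA after whole-transcript amplification. The deposited values are on a log2 scale and were made by the authors with the Robust Multi-array Average (RMA: background correction, quantile normalization, probe summary) in Expression Console (versions not given in the sources used here). They run from 2.05 to 19.89. A 16-bit image gives at most 16 without rescaling, and no source here states a further scaling. The methods give the array as Mouse Gene 2.0-ST, but the identifiers of the rows belong to a different mouse array of Affymetrix, and for RNA extraction the labels give a column kit and the methods TRIzol. Background levels and detection calls were not used here, and the number of arrays limits precision.

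Of 22206 rows, 19572 have 1 gene symbol, 0 several and 2634 none here. The row with the highest mean stands for each of 19505 genes. The limma 3.58.1 fits (lmFit, then eBayes, R 4.3.3, both directions tested) were adjusted by Benjamini-Hochberg over all 19505, and single genes also with exact permutation tests. The code was tested on simulated data. The study's thresholds (1.2-fold or more, p under 0.05 before adjustment) were set on this fit. Gene lists are described by counts and medians with no test. After removal of group means, arrays with the same replicate number correlated at 0.561, 0.516, 0.623 and 0.557, and arrays with different numbers at -0.424 to 0.128. As each is over 0.1, the numbers were treated as pairs in the fit with the block and in the differences by replicate number. This rests on the values alone, since no source states such a design. The methods state no block, so values are without it unless named. The main fit and the exact permutation tests thus ignore this pairing, and their p-values take the arrays as independent.

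Values per array are given for core subunits, Ndufaf genes, genes past the thresholds or without overlap, the 3 smallest fold changes and 2 paralog pairs. Ndufc2 was added as an example after its values were seen, and Ndufb4, Ndufb5, Ndufb6, Ndufb10 and Ndufb11 were moved to the distal arm list, where the enzyme's structure places them, also after that. The members and lists were chosen with earlier results of these data known. Motifs were searched on both strands of the RefSeq promoter table, and gene spans come from the GRCm38.p6 annotation. Alternatives were the replicate block, renewed quantile normalization, median centring, a filter on dim rows, the mean of a gene's rows, array weights, eBayes with trend and robust settings, a gene-wise unpaired test with unequal variances, and leaving out arrays.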

Additional observations from a re-analysis of the deposited data

Results flagged for a closer look

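In 2 of the 94 groups of 4 arrays examined (46 complex I genes and RhoA in each group), 1 array stood apart from the other 3 by Dixon's criterion, which chance alone passes in about 1 group in 20. Ndufaf6 read 6.88 in replicate 2 of Ad-mCherry, against 7.72 to 7.80 in the other 3 arrays of that group, a gap of 0.913 of the whole range. Ndufs7 read 10.55 in the same array, against 11.23 to 11.37 in the others, only just past the criterion. Without this array the log2 fold change was 0.25 for Ndufaf6, against 0.47 with all arrays, and 0.67 for Ndufs7, against 0.86.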

How the results depend on the processing

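Under every alternative that keeps all arrays, 40 complex I genes were above 0, 0 were past the thresholds downward, 0 had an adjusted p under 0.05, and both class medians were above 0. The block, the trend and robust settings, the test with unequal variances and the filter on dim rows leave the fold change of each gene kept unchanged. For these settings the count above 0 and the medians are therefore no check. The mean of a gene's rows gave the same count and medians too. It is hardly a check either, as few genes have several rows (19572 rows for 19505 genes). The median difference between subunits and assembly factors was 0.00 after quantile normalization was applied again, against 0.06. The count of 8 past the thresholds upward was 3, of 45 tested, when only rows at or above the median were kept (3.08% of the 9754 genes kept). It was 5 with trend and robust settings (2.91% of all genes), 5 with the gene-wise unpaired test with unequal variances (2.11%), 9 after renewed quantile normalization (3.24%) and 12 with the replicate block (6.54%). Of the genes with values per array, the block changed the calls of Ndufaf6 and Ndufc2 only. Leaving out arrays gave 1 to 9 genes past the thresholds upward (1.41% to 3.60% of all genes), 0 to 0 downward, 0 to 0 at the adjusted threshold, 38 to 42 above 0, subunit medians of 0.20 to 0.35, factor medians of 0.04 to 0.31, differences between them of -0.11 to 0.20, and RhoA at -0.95 to -0.60. There the sign turned in 12 of the 46 genes, Ndufaf2 (-0.35 to 0.11), Ndufaf3 (-0.06 to 0.26), Ndufaf4 (-0.35 to 0.06), Ndufaf7 (-0.15 to 0.04), Ndufa4l2 (-0.09 to 0.02), Ndufa5, Ndufa9, Ndufb3, Ndufb4b, Ndufb7, Ndufs4 and Ndufs5. The cause was not tested. Where 1 array is left out, the other of its number stays. Without Ndufa4, Ndufa4l2 and Ndufb4b the subunit median was 0.28.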
